A study of Homo sapiens with 6 samples.

Results

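The transcripts of 36 genes that act in the G2 phase and in mitosis were measured in SW620, a human colorectal cancer cell line. The genes were taken by name from a list of mitotic genes, which was drawn up with earlier results of these data known, and all 36 had a row among the 20476 genes of the table. In 1 group ECM1, which encodes a secreted extracellular matrix protein, had been knocked down by a stably expressed short hairpin RNA (shECM1). The other group held a control hairpin in its place (shNC), and each group had 3 libraries. The study was set up to examine how ECM1 bears on the chemokine gene CCL20. The labels do not say whether the stable cells were clones or pools, or how many hairpins against ECM1 were used. The columns of the table carry only a letter and a number, from which the group of each library was inferred, and were that reading wrong, higher and lower would swap throughout. ECM1 itself was at 14.8, 13.6 and 8.41 CPM (counts scaled to the library total, as adjusted by trimmed means of M values, TMM) in shECM1 replicates 1, 2 and 3, and at 38.8, 19.0 and 52.3 CPM in shNC replicates 1, 2 and 3. The groups did not overlap (log2 fold change -1.58 ± 0.32 SE), but edgeR did not call the difference (adjusted p = 0.0973). ECM1 was called by DESeq2 (adjusted p = 0.0256), and edgeR called it without the filter on low counts (adjusted p = 0.0139) or when shNC replicate 2 was left out (adjusted p = 0.000192). The control replicate 2 stood apart from the other controls over all genes: on the first principal component (58.1% of the variance) it was at 8.64, against -25.2 and -41.2 for shNC replicates 1 and 3 and 16.6 to 23.3 for the shECM1 libraries.

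Cells enter mitosis when CDK1, bound to cyclin B and activated by CDC25 phosphatases, outweighs its inhibitory phosphorylation. Aurora and Polo-like kinases then drive centrosome maturation, spindle assembly and chromosome condensation, while the spindle checkpoint holds back the anaphase-promoting complex until every kinetochore is attached. The transcripts of these genes accumulate in G2 and mitosis and are low in G1, so in a growing line such as SW620 they are commonly read as markers of proliferation. In a measurement of whole libraries, fewer cells in G2 and mitosis and less of each transcript per cell cannot be told apart.

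Of the 36 transcripts, 35 were abundant enough to be tested, and in none of them did the shECM1 libraries separate from the shNC libraries. The groups overlapped in 35 of 35, whereas over all 12576 genes tested 13.2% lay wholly lower and 11.2% wholly higher in shECM1. The fitted difference was negative in 29 of 35, with a median log2 fold change (shECM1 over shNC) of -0.18, against a median of 0.01 over all genes tested, of which 48.6% were negative. The quasi-likelihood test of edgeR, adjusted by Benjamini-Hochberg over all genes tested, called 0 of 35 at a threshold of 0.05, and it called 0% of the 12576 genes. At an unadjusted p under 0.05 there were 9 of 35, all negative (AURKB, CDC20, CDC25B, HJURP, KIF20A, KIF2C, ANLN, NEK2 and MKI67). Over all genes tested 14.2% were lower and 8.31% higher by that rule. DESeq2 called 1 of 35, HJURP (adjusted p = 0.0307), and 5.08% of its genes lower and 1.03% higher. At an unadjusted p under 0.05 it gave 9 of 35, all negative, where 13.5% of its genes were lower and 8.7% higher.

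The libraries themselves were spread widely, and shNC replicate 2 stood with the shECM1 libraries and not with the other controls. Summed over the 35 transcripts, the level was 4422, 4289 and 3861 CPM in shECM1 replicates 1, 2 and 3, and 5062, 4096 and 5450 CPM in shNC replicates 1, 2 and 3. The control replicates 1 and 3 were therefore the highest of the 6 libraries, and the control replicate 2 was the lowest but for shECM1 replicate 3. In 25 of 35 transcripts shNC replicates 1 and 3 both lay above the other 4 libraries, a pattern seen in 24.9% of all genes tested. In 0 of 35 they both lay below the other 4, which was the case for 23.4% of all genes tested. The control replicate 2 lay within the range of the shECM1 libraries in 27 transcripts and below all of them in 8, and above all of them in 0.

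The same spread was seen on the log2 scale, as the distance of each library from a transcript's mean over the 6 libraries, averaged over the 35 transcripts. This position was -0.02, -0.06 and -0.22 in shECM1 replicates 1, 2 and 3, and 0.16, -0.14 and 0.26 in shNC replicates 1, 2 and 3. The standard deviation of these positions within a group, pooled over both groups, was 0.17. Within shNC, replicate 2 was below replicate 3 in 31 of 35 transcripts, with a median difference of -0.43. Between single libraries of different groups the median difference had a similar reach. It ran from -0.56 (shECM1 replicate 3 minus shNC replicate 3) to 0.09 (shECM1 replicate 1 minus shNC replicate 2). Within shECM1, replicate 1 was above replicate 3 in 30 of 35 (median difference 0.24). Set against the control replicate 2 alone, shECM1 replicates 1 and 2 were higher in 32 and 27 of 35 transcripts, and shECM1 replicate 3 was higher in 13. The highest library was shNC replicate 3 in 27 transcripts, and the lowest was shECM1 replicate 3 in 20.

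**Figure D1:**
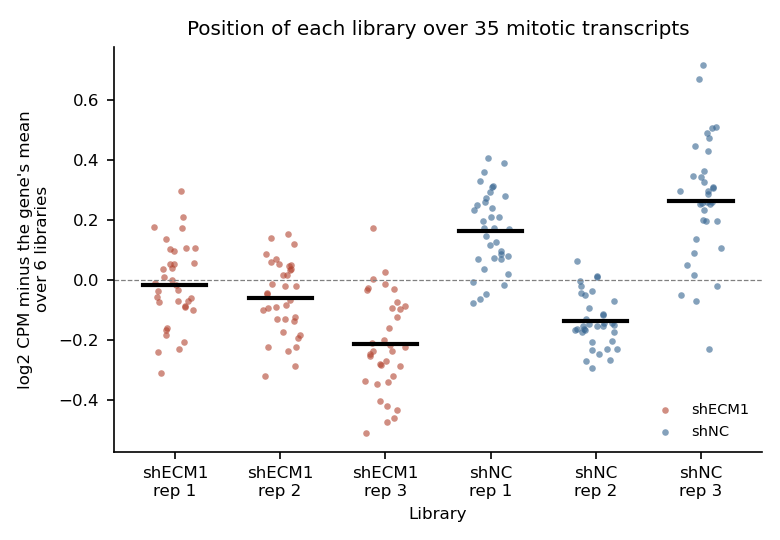
Position of each library. The y axis gives log2 CPM minus the transcript's mean over the 6 libraries, each point is 1 of 35 transcripts, and bars are means. The shECM1 bars stand at -0.02, -0.06 and -0.22 and the shNC bars at 0.16, -0.14 and 0.26, so shNC replicate 2 sits among the shECM1 libraries.

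Each library was left out in turn, and the fit without shNC replicate 2 is given in full because it stood apart from the other controls. It was singled out by these same values, as the control nearest to the shECM1 libraries. Leaving it out favours a larger difference and a smaller spread. Its p-values are therefore likely too small, and calls without it, throughout this text, are a description only. Without shNC replicate 2, 14 of 35 transcripts were called, all lower in shECM1, with log2 fold changes from -0.84 to -0.35. In that fit 14.1% of all genes tested were called lower and 9.73% higher. The 14 were MKI67, CCNA2, CDK1, CDC25B, AURKB, NEK2, BUB1, CDC20, UBE2C, HJURP, KIF2C, TPX2, KIF20A and ANLN. At an unadjusted p under 0.05 there were 22 of 35, all negative, beside 20% of all genes lower and 17.3% higher. Leaving out any of the other 5 libraries gave 0 calls among the 35, and also 0 over all genes tested. Without shNC replicate 3, the highest library, 1 transcript was left at an unadjusted p under 0.05, and the median log2 fold change was -0.09. Over all genes tested 1433 met that rule in this fit, against 2827 with all libraries.

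**Figure D2:**
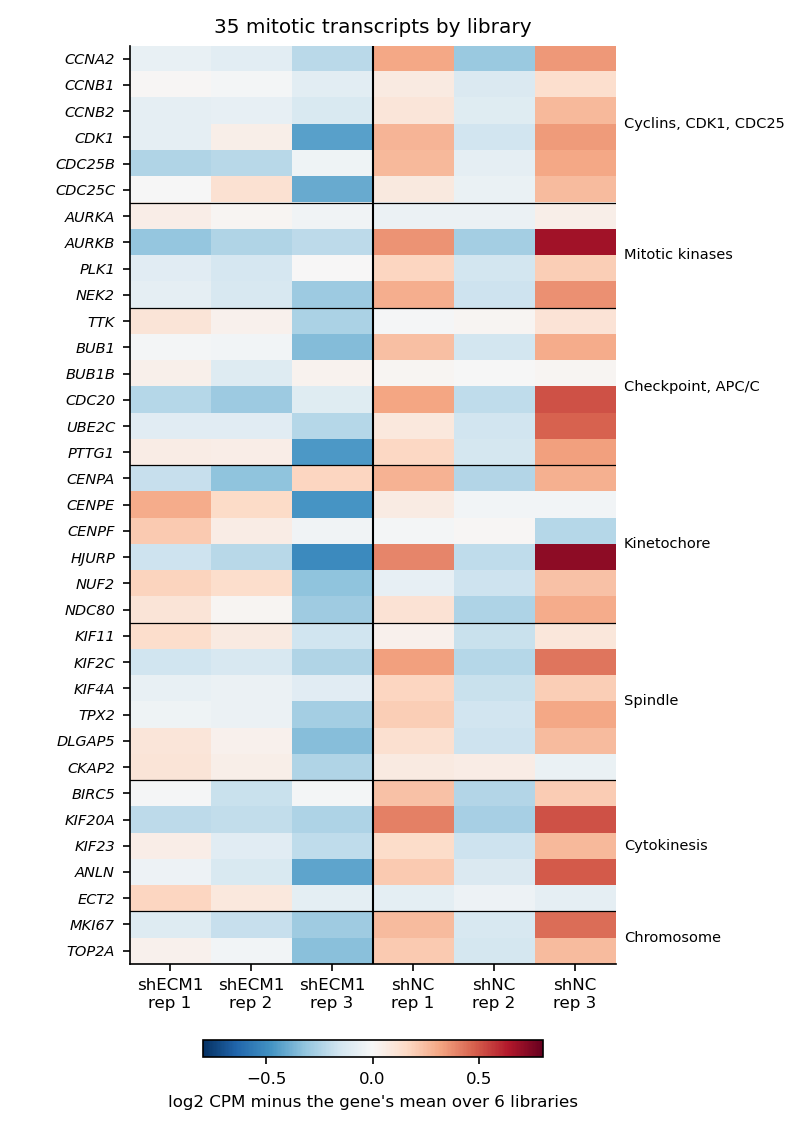
Levels of the 35 tested transcripts. Rows are transcripts grouped by role, columns are the 3 shECM1 and 3 shNC libraries, and colour is log2 CPM minus the row mean. The columns of shNC replicates 1 and 3 are red in most rows, and 25 of 35 rows have their 2 highest values there.

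MKI67 and TOP2A are the transcripts most often used to mark dividing cells. MKI67 encodes Ki-67, which coats mitotic chromosomes (GRCh38 chromosome 10, 128096659 to 128126385, minus strand). Its level was 355, 335 and 312 CPM in shECM1 replicates 1, 2 and 3, and 452, 347 and 518 CPM in shNC replicates 1, 2 and 3. The control replicate 2 fell between shECM1 replicates 1 and 2, while the other controls were far above them. The means were 334 ± 21.2 CPM in shECM1 and 439 ± 86.2 CPM in shNC (SD, n = 3 each), and the log2 fold change of -0.40 ± 0.14 (SE) was not called by edgeR (adjusted p = 0.139). It was -0.53 without shNC replicate 2, where edgeR called it (adjusted p = 0.00375), and -0.26 without shNC replicate 3 (adjusted p = 0.472). TOP2A encodes the topoisomerase that untangles sister chromatids (chromosome 17, 40388516 to 40417950, minus strand). It was the most abundant of the 35 in CPM, at 500.0, 481 and 386 CPM in shECM1 and 564, 441 and 581 CPM in shNC, replicates 1 to 3 in each. Here shNC replicate 2 lay below shECM1 replicates 1 and 2, and the log2 fold change was -0.21 ± 0.13 (SE; edgeR adjusted p = 0.356). It was -0.11 without shECM1 replicate 3, -0.14 without shNC replicate 3 and -0.39 once each library's trend on GC content was removed, and uncalled in each. By mean CPM they were the 2 most abundant of the 35.

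Promoter sequence was a feature that the choice of these genes did not use. Genes of the mitotic programme commonly carry a cell cycle homology region (CHR), the motif bound by the DREAM and MuvB complexes, and CCAAT boxes, bound by NF-Y, shortly before their start. RefSeq promoters (GRCh38.p14, 250 bases before to 50 after a start) were found for 31 of the 36 genes. The CHR, searched as TTTGAA and also as the variant that has a C in the middle, TTCGAA, was present on either strand in 22 of these 31 genes and in 15.2% of the 10133 tested genes with a promoter in the table. CCAAT, on either strand, was present in 24 of 31 genes and in 42.9% of those tested genes. Both motifs were present in 18 of 31 and in 6.27%. Of 147 other listed cell cycle genes with a promoter, 44.2% had the CHR, 62.6% had CCAAT and 28.6% had both. Log2 fold changes had a median of -0.18 in the 17 tested genes with both motifs and -0.23 in the 13 tested genes without both, so the presence of these letters did not go with a more negative difference. To show the arrangement, the bases just before the annotated first exon are printed 5′ to 3′ for the 2 proliferation markers, for CDC20 and HJURP, which had some of the most negative differences, and for the motor genes KIF4A and KIF11, which had smaller differences (-0.14 and 0.03). Capitals mark the CHR, which reads TTCAAA where it lies on the other strand, and the CCAAT box, which then reads ATTGG. In MKI67 the second CHR and the ATTGG that follows it share their A.
MKI67, chr10:128126424-128126553, minus strand: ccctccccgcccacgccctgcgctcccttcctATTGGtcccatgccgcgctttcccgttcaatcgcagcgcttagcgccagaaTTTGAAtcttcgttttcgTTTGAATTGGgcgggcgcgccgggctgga
TOP2A, chr17:40417951-40418080, minus strand: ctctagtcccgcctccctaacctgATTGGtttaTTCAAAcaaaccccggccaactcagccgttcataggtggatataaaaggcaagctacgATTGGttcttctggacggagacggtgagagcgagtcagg
CDC20, chr1:43358825-43358954, plus strand: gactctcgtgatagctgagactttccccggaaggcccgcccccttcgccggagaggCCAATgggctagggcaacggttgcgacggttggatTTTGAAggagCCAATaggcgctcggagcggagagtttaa
HJURP, chr2:233854567-233854696, minus strand: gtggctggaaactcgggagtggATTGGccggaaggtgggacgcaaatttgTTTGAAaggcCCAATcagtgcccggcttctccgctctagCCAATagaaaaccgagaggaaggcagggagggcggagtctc
KIF4A, chrX:70289980-70290089, plus strand: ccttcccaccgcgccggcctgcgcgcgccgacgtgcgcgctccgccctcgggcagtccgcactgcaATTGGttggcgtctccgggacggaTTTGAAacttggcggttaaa
KIF11, chr10:92593000-92593129, plus strand: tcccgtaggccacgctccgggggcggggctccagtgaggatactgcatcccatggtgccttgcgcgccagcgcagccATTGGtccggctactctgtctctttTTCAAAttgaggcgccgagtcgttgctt
In CDC20 the TTTGAA starts 65 bases before the RefSeq start, between CCAAT boxes that begin 100 and 55 bases before it. In KIF4A and KIF11 a single ATTGG, which begins 58 and 53 bases before the start, precedes a single CHR match at 34 and 28 bases. A match is a description of letters and not evidence of binding.

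Cyclins, CDK1 and the CDC25 phosphatases form the engine of mitotic entry. All 6 had negative log2 fold changes, from -0.34 to -0.06, and 0 were called. CCNB1, cyclin B1, was the most abundant, with 261, 257 and 244 CPM in shECM1 and 272, 239 and 284 CPM in shNC (replicates 1 to 3). The control replicate 2 was the lowest of the 6 libraries and the other controls the highest. The means of 254 ± 8.95 CPM in shECM1 and 265 ± 23.3 CPM in shNC (SD, n = 3 each) gave a log2 fold change of -0.06, with a 95% confidence interval from -0.29 to 0.16 (edgeR adjusted p = 0.737). Leaving out 1 library gave values from -0.12 without shNC replicate 2 to -0.0084 without shNC replicate 3. CDC25B, the phosphatase that first activates CDK1 at the centrosome, had the smallest p in the group. It stood at 193, 195 and 223 CPM in shECM1 and at 273, 217 and 282 CPM in shNC, with shNC replicate 2 again inside the shECM1 range (log2 fold change -0.34 ± 0.12 SE, edgeR adjusted p = 0.145). It was called without shNC replicate 2 (-0.43, edgeR adjusted p = 0.00944) and was -0.21 with the GC trend removed. CDK1 had 153, 166 and 119 CPM in shECM1 and 194, 144 and 203 CPM in shNC, with a log2 fold change of -0.31. The other members, cyclin A2 (CCNA2, -0.27), cyclin B2 (CCNB2, -0.18) and CDC25C (-0.18), gave smaller values.

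The mitotic kinases differed among themselves. AURKB, the catalytic subunit of the chromosomal passenger complex (chromosome 17, 8204733 to 8210600, minus strand), had 71.1, 74.7 and 76.2 CPM in shECM1 and 113, 73.0 and 140.0 CPM in shNC. The shECM1 libraries were tightly grouped at 74.0 ± 2.61 CPM, whereas the controls spread over 109 ± 33.7 CPM (SD, n = 3 each), replicate 2 lying inside the shECM1 range. Its log2 fold change was -0.55 ± 0.19 (SE; edgeR adjusted p = 0.135), -0.76 without shNC replicate 2 (edgeR adjusted p = 0.000897) and -0.33 without shNC replicate 3 (edgeR adjusted p = 0.464). AURKA, the paralogue that works at centrosomes and spindle poles, gave 72.5, 70.6 and 68.6 CPM in shECM1 and 67.6, 67.7 and 72.3 CPM in shNC. These 6 values lay close together, and the log2 fold change of 0.03 had a 95% interval from -0.19 to 0.25. PLK1, Polo-like kinase 1, was the most abundant kinase of this group, at 133, 129 and 142 CPM in shECM1 and 159.7, 128 and 162 CPM in shNC (log2 fold change -0.16 ± 0.12 SE, edgeR adjusted p = 0.431). It was -0.25 without shNC replicate 2, -0.094 without shNC replicate 3 and -0.047 with the GC trend removed. NEK2, a centrosome-separating kinase, had a log2 fold change of -0.34 (edgeR adjusted p = 0.188).

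**Figure D3:**
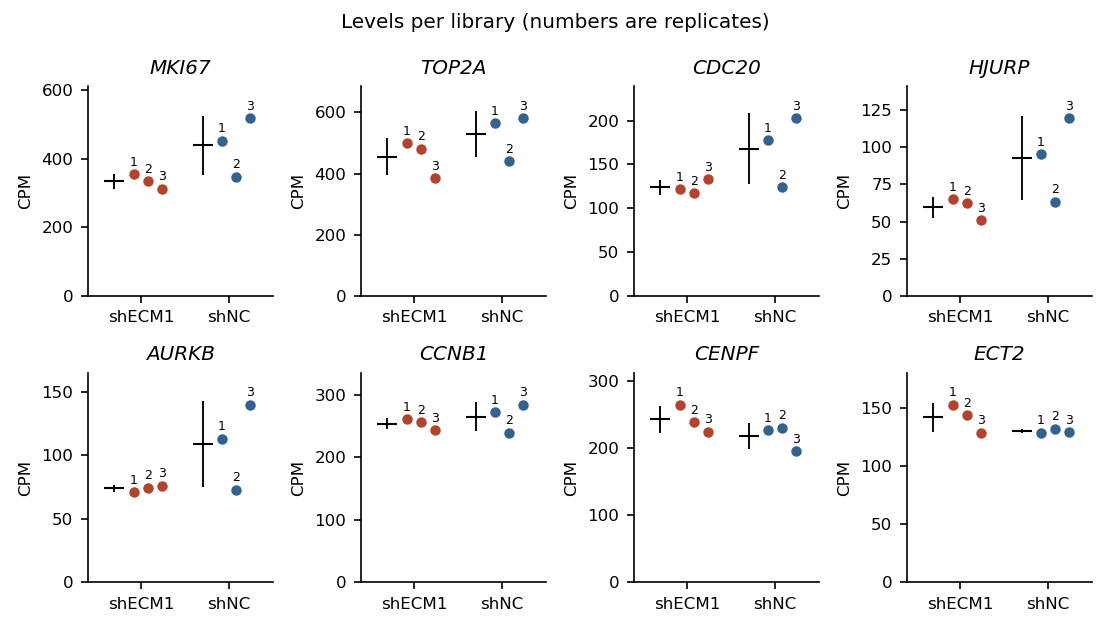
Levels of 8 mitotic transcripts by library. The y axis is CPM and starts at 0, numbered points are replicates, and the bar with whiskers is the mean ± SD of 3 libraries. AURKB stood at 71.1 to 76.2 CPM in shECM1 and at 73.0 to 140.0 CPM in shNC, while ECT2 stood at 129 to 153 CPM in shECM1 and at 129 to 132 CPM in shNC.

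The spindle checkpoint and the anaphase-promoting complex set the timing of chromosome separation, and their 6 transcripts were all negative, from -0.44 to -0.02. CDC20, the coactivator of the complex and the target of the checkpoint (chromosome 1, 43358955 to 43363203, plus strand), had 122, 117 and 133 CPM in shECM1 and 177, 124 and 203 CPM in shNC. The control replicate 2 again fell inside the shECM1 range, and the means were 124 ± 8.41 CPM in shECM1 and 168 ± 40.5 CPM in shNC (SD, n = 3 each). The log2 fold change was -0.44 ± 0.16 (SE; edgeR adjusted p = 0.149), -0.60 without shNC replicate 2 (edgeR adjusted p = 0.00202) and -0.28 without shNC replicate 3 (edgeR adjusted p = 0.492). UBE2C, the ubiquitin-conjugating enzyme of the complex, had 158, 158 and 144 CPM in shECM1 and 178, 151 and 233 CPM in shNC, a log2 fold change of -0.29 that was -0.11 without shNC replicate 3 and -0.41 without shNC replicate 2 (edgeR adjusted p = 0.0255). PTTG1, securin, had a log2 fold change of -0.23. Its near-identical copy PTTG2 had 0 counts in every library. The checkpoint kinases gave -0.26 for BUB1, -0.07 for TTK and -0.02 for BUB1B. BUB1B varied least among the shNC libraries of all 35, with 87.1, 78.9 and 86.3 CPM in shECM1 and 85.7, 84.5 and 85.7 CPM in shNC.

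Centromere and kinetochore transcripts held both extremes of the 35. HJURP, the chaperone that loads the centromeric histone (chromosome 2, 233833416 to 233854566, minus strand), had the most negative value. Its level was 64.9, 62.4 and 51.1 CPM in shECM1 and 95.3, 63.3 and 119.6 CPM in shNC, so shNC replicate 2 fell between shECM1 replicates 1 and 2. The means were 59.5 ± 7.38 CPM in shECM1 and 92.7 ± 28.3 CPM in shNC (SD, n = 3 each), with a log2 fold change of -0.64 ± 0.20 (SE; edgeR adjusted p = 0.117). It was the only transcript of the 35 at an unadjusted p under 0.05 without shNC replicate 3, where its log2 fold change was -0.41 (edgeR adjusted p = 0.401), against -0.84 without shNC replicate 2 (edgeR adjusted p = 0.00127). CENPF, a large protein of the outer kinetochore, had the most positive value. It gave 265, 239 and 224 CPM in shECM1 and 227, 231 and 195 CPM in shNC, with shNC replicate 3 the lowest here (log2 fold change 0.16, 95% interval -0.08 to 0.40). It was 0.098 without shECM1 replicate 1 and 0.087 without shNC replicate 3. CENPE, the kinetochore motor, spread more within shECM1, at 55.2, 49.9 and 32.3 CPM, than within shNC, at 47.1, 44.3 and 44.3 CPM. The microtubule-binding subunits NUF2 and NDC80, partners in 1 complex, had log2 fold changes of 0.00 and -0.12. CENPA, the centromeric histone itself, was at -0.23 and among the least abundant of the 35, with 16.6 ± 3.02 CPM in shECM1 and 19.4 ± 3.74 CPM in shNC (SD, n = 3 each).

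Spindle motors and microtubule-binding proteins gave 6 tested transcripts, 5 of them negative. TPX2, which activates AURKA on spindle microtubules, was the most abundant, at 234, 232 and 199 CPM in shECM1 and 274, 215 and 297 CPM in shNC (log2 fold change -0.24 ± 0.13 SE, edgeR adjusted p = 0.287). It was -0.35 without shNC replicate 2 (edgeR adjusted p = 0.0318) and -0.14 without shNC replicate 3 (edgeR adjusted p = 0.700). KIF2C, a microtubule depolymerase, had 135, 138 and 128 CPM in shECM1 and 189.5, 129 and 203 CPM in shNC. Its shECM1 libraries and shNC replicate 2 all fell within 128 to 138 CPM, and the log2 fold change was -0.38 ± 0.15 (SE; edgeR adjusted p = 0.180), -0.54 without shNC replicate 2 (edgeR adjusted p = 0.00247) and -0.25 without shNC replicate 3 (edgeR adjusted p = 0.541). KIF11, the motor that pushes spindle poles apart, gave 91.7, 87.6 and 74.6 CPM in shECM1 and 85.5, 73.8 and 88.7 CPM in shNC, with a log2 fold change of 0.03. KIF4A, DLGAP5 and CKAP2 were at -0.14, -0.14 and -0.05. KIF4A shares most of its sequence with the retrogene KIF4B, which held 7 to 14 counts per library. How reads matching both genes were counted is not given, so the effect on the count of KIF4A is not known.

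NUSAP1, a spindle protein bundling microtubules, was the member that was not tested. It had 0, 7 and 3 counts in shECM1 and 1, 2 and 3 counts in shNC, where the 35 others had at least 157 counts in every library. In GENCODE release 29, 72.8% of its exonic bases (1787 bases) are also exonic in an overlapping gene on the same strand, ENSG00000285920. That gene had 0 counts in all 6 libraries. Whether the overlap bears on the low counts was not tested, and no level of NUSAP1 is given. Exons of CCNA2 (5.15% of its bases), CDC25C (10.7%), KIF20A (2.12%), ANLN (1.63%), PLK1 (1.89% and 7% for its 2 neighbours), KIF2C (4.24%) and KIF23 (6.14%) overlap a gene on the other strand, and since the use of strand in counting is not known, reads there cannot be told apart. BUB1B shares 4.57% of its bases with the readthrough gene BUB1B-PAK6.

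Cytokinesis transcripts again held values on both sides of 0. ANLN, anillin of the cleavage furrow, was the most abundant, at 189, 178 and 145 CPM in shECM1 and 224, 179 and 273 CPM in shNC (log2 fold change -0.40 ± 0.15 SE, edgeR adjusted p = 0.168). It was -0.53 without shNC replicate 2 (edgeR adjusted p = 0.0115) and -0.24 without shNC replicate 3 (edgeR adjusted p = 0.536). KIF20A, a motor of the central spindle, had 48.3, 48.7 and 46.9 CPM in shECM1 and 73.8, 46.3 and 79.3 CPM in shNC. The 3 shECM1 values differed by less than 2 CPM, the control replicate 2 lay just below them, and the log2 fold change was -0.47 ± 0.17 (SE; edgeR adjusted p = 0.156). Without shNC replicate 2 it was -0.66 (edgeR adjusted p = 0.00142). ECT2, the exchange factor that activates RHOA at the furrow, had a positive value, at 153, 144 and 129 CPM in shECM1 and 129, 132 and 129 CPM in shNC (log2 fold change 0.13, 95% interval -0.10 to 0.35). KIF23, the partner motor in centralspindlin, and BIRC5, survivin of the passenger complex, were at -0.17 and -0.15. Within the passenger complex AURKB had a log2 fold change of -0.55 and BIRC5 of -0.15, and the difference between them was not tested.

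**Figure D4:**
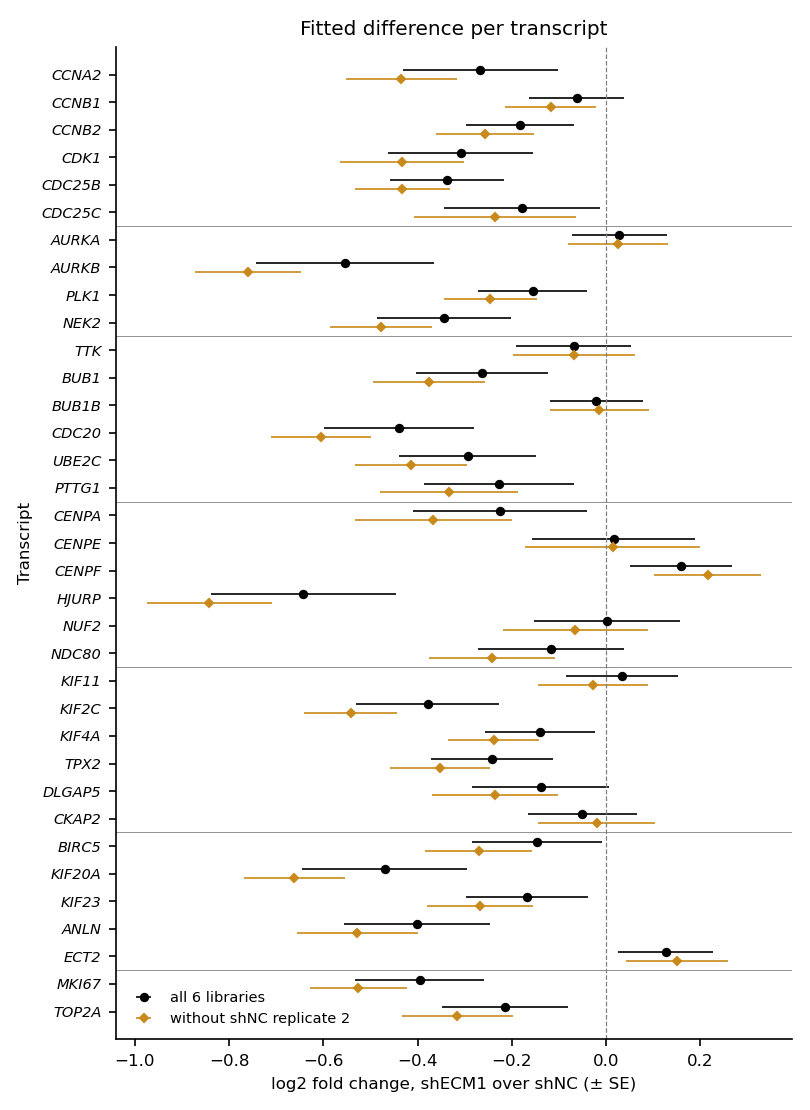
Fitted log2 fold changes (x axis, shECM1 over shNC, with SE) of the 35 transcripts, grouped by role from top to bottom. Black circles use all 6 libraries and orange diamonds leave out shNC replicate 2. HJURP at -0.64 and CENPF at 0.16 mark the extremes of the black circles, and HJURP moves to -0.84 without that control.

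Differences within the set went along with base composition. Transcript GC content ran from 35.5% to 58.2% over the 35, with a median of 44.8%, against 49.8% over all genes tested. Across the 35 transcripts the log2 fold change and GC content had a Pearson correlation of -0.54 and a Spearman correlation of -0.55. These transcripts share the same 6 libraries and are not independent replicates. The 17 transcripts of lower GC had a median log2 fold change of -0.12, and 5 of them were positive. The 18 of higher GC had a median of -0.23, and 1 was positive. The same relation was present over 12502 tested genes with a GC value (Pearson -0.39). Libraries differed by GC in general: genes in the highest GC tercile averaged -0.17, -0.17 and 0.02 log2 units from their mean in shECM1 replicates 1, 2 and 3, and 0.16, -0.01 and 0.17 in shNC replicates 1, 2 and 3. In the lowest GC tercile the averages, in the same order, were 0.14, 0.12 and -0.08 in shECM1 and -0.09, 0.01 and -0.10 in shNC.

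When each library's trend on GC content was removed, 34 of 35 transcripts were negative, with a median log2 fold change of -0.27, and CENPF, at 0.01, was the exception. The other 5 that had been positive, AURKA, CENPE, NUF2, KIF11 and ECT2, were negative there (ECT2 at -0.05). The count at an unadjusted p under 0.05 was then 18 of 35, all negative, where 13.9% of all genes tested were lower and 8.48% higher by that rule. Still 0 of 35 were called, as were 0 of all 12576 genes tested. After this removal the lower and higher GC transcripts had medians of -0.27 and -0.28. Library positions were then -0.10, -0.14 and -0.17 in shECM1 replicates 1, 2 and 3, and 0.23, -0.14 and 0.33 in shNC replicates 1, 2 and 3, with shNC replicate 2 still among the shECM1 libraries. Whether the GC trends come from library preparation or from the cells was not tested.

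**Figure D5:**
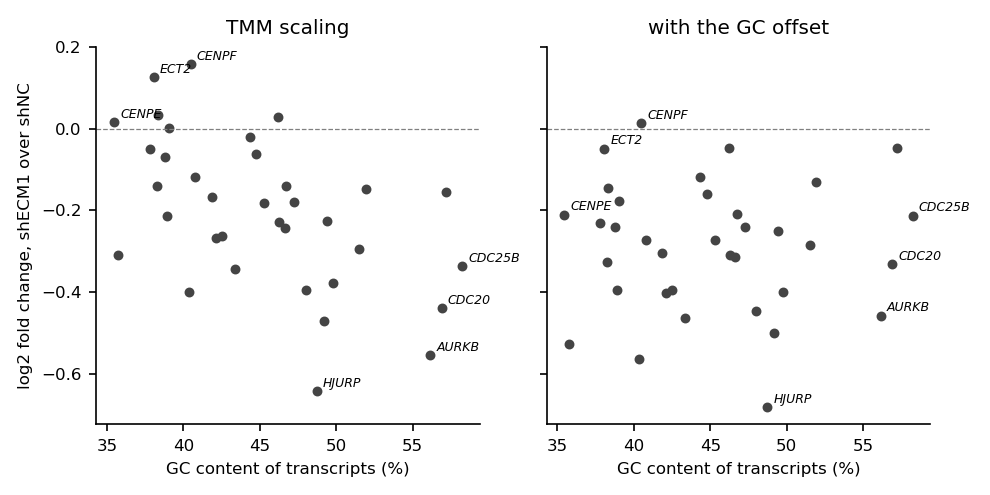
Log2 fold change (y axis, shECM1 over shNC) against GC content of the transcripts in percent (x axis) for 35 mitotic transcripts. Left, TMM scaling, with a Pearson correlation of -0.54. Right, after removal of each library's GC trend, with a correlation of -0.03, where 34 of 35 points lie below 0.

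Levels per kilobase of exon set the 35 transcripts in another order than CPM. UBE2C led with 132 CPM per kilobase as a mean over the 6 libraries, followed by CCNB1 with 119.6, PTTG1 with 98.05, TOP2A with 85.5 and CDK1 with 80.1. MKI67, second in CPM, had 30.5 CPM per kilobase because its exons span 12678 bases. CENPE was lowest with 5.29 and CDC25C next with 7.07 CPM per kilobase.

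A wider list of 119 other mitotic genes, covering entry regulators, checkpoint and anaphase-promoting complex subunits, kinetochore, spindle and centrosome proteins, cytokinesis factors, condensin and cohesin, was spread more evenly around 0, although the difference between the lists was not tested. Its median log2 fold change was -0.01, with 60 negative and 59 positive, and at an unadjusted p under 0.05 there were 13 lower and 9 higher. Over all genes tested 14.2% were lower and 8.31% higher by that rule. The cytokinesis genes came closest to the 35, with 12 of 14 negative and a median of -0.22. RACGAP1, a centralspindlin subunit and the most abundant of them, was at -0.25, and CIT, citron kinase, at -0.45. Subunits and partners of the anaphase-promoting complex and checkpoint leaned the other way, with 14 of 20 positive and a median of 0.14, of which 4 were higher and 2 lower at an unadjusted p under 0.05. In that list ESPL1, separase, was at 102, 87.8 and 96.9 CPM in shECM1 and 149, 104 and 138 CPM in shNC, and its groups did not overlap (log2 fold change -0.45 ± 0.14 SE, edgeR adjusted p = 0.116). SPAG5, a spindle and kinetochore protein, was at 69.8, 63.2 and 67.8 CPM in shECM1 and 92.2, 80.9 and 101 CPM in shNC, also without overlap (-0.45 ± 0.11 SE, edgeR adjusted p = 0.0973), and DESeq2 called it (adjusted p = 0.0230). Among the rest, the most abundant gene and the gene of smallest p in each list were CCNB1IP1 (0.35, both in its list), BUB3 (-0.09), CENPN (0.00) and SPC24 (-0.54) of the kinetochore, CKAP5 (-0.07) of the spindle, and the cohesin subunits STAG2 (0.02) and STAG1 (0.45). CIT and BUB3 also lay wholly lower in shECM1, and STAG1 lay wholly higher. Over all genes tested 13.2% lay wholly lower and 11.2% wholly higher. Without shNC replicate 2 edgeR called CCNB1IP1 (0.53), ESPL1 (-0.58), SPC24 (-0.79), SPAG5 (-0.52), CIT (-0.55) and STAG1 (0.56), and without shNC replicate 3 SPC24 was at -0.29. By library, the 119 genes had mean positions of 0.04, 0.03 and -0.09 in shECM1 replicates 1, 2 and 3, and 0.03, -0.07 and 0.06 in shNC replicates 1, 2 and 3, a narrower range than that of the 35.

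Regulators upstream of the mitotic genes were measured too. Of all genes tested, 14.2% were lower and 8.31% higher at an unadjusted p under 0.05. Of 14 transcription factors of the programme, 8 were negative and 6 positive, with 2 lower by that rule. E2F4 was the most abundant (0.17), and E2F7, a repressor, had the smallest p (-0.32). FOXM1 and MYBL2, the activators of G2 and mitotic genes, chosen after their values were seen, were at -0.13 and -0.28. FOXM1 had 63.7, 69.6 and 83.3 CPM in shECM1 and 79.7, 72.5 and 84.5 CPM in shNC, with the groups overlapping. Of 10 inhibitors of cyclin-dependent kinases and related genes, 9 were negative, where 48.6% of all genes tested were. Lower at an unadjusted p under 0.05 were 6 of the 10, beside 14.2% of all genes tested. CDKN2D had 8.34, 8.82 and 6.73 CPM in shECM1 and 21.3, 10.8 and 35.6 CPM in shNC (log2 fold change -1.50 ± 0.34 SE, edgeR adjusted p = 0.0973). It was called by DESeq2 (adjusted p = 0.000681), by edgeR without the filter on low counts (adjusted p = 0.0143) and by edgeR without shNC replicate 2 (adjusted p = 0.000261). CDKN2A, the most abundant inhibitor, was at -0.14, and at 0.030 with the GC trend removed. CDKN1A, which encodes p21 and was chosen after its values were seen, had 5.26, 3.40 and 2.05 CPM in shECM1 and 14.9, 4.38 and 19.1 CPM in shNC. Its control replicate 2 was again inside the shECM1 range, the same order of libraries as for MKI67. Replicates 1 and 3 of shNC both lay above the other 4 libraries in 24.9% of all genes tested. Of 7 tested G1 cyclins and kinases, 5 were negative, and CDK4, the most abundant and of smallest p, was at 0.44 (0.60 without shNC replicate 2, where edgeR called it with an adjusted p of 0.00586).

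S phase genes were spread around 0. Of 18, 11 were positive, with a median of 0.05, and MCM7, a helicase subunit and the most abundant, was at 0.13, while RRM2, a ribonucleotide reductase subunit of smallest p, was at -0.84 (edgeR adjusted p = 0.115). RRM2 was called by DESeq2 (adjusted p = 0.0154), by edgeR without the filter on low counts (adjusted p = 0.0370) and without shNC replicate 2 (-1.12, adjusted p = 0.000284), and was at -0.53 without shNC replicate 3. Their mean positions were -0.13, -0.04 and 0.18 in shECM1 replicates 1, 2 and 3, and 0.07, -0.07 and -0.01 in shNC replicates 1, 2 and 3, so shECM1 replicate 3 was the highest library for S phase genes and the lowest for the 35 mitotic transcripts.

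Total counts ran from 9881720 to 16813951 per shECM1 library and from 11792872 to 14781799 per shNC library, and the 35 transcripts had between 157 and 8121 counts in a library. The epithelial marker EPCAM was present at 454.6 to 538 CPM over the 6 libraries, and KRT8 and KRT18 were abundant, whereas CDX1, an intestinal factor, had at most 1 count. Summed over all 10 listed colon markers, levels ran at 10341.4 to 11695.5 CPM in shECM1 and at 10674.3 to 15369.2 CPM in shNC. Of markers of other cells, 3 of 9 fibroblast, 2 of 7 immune and 1 of 5 endothelial genes had 0 counts in every library. Among these were PDGFRA (fibroblast), PTPRC (immune) and KDR (endothelium), and the other listed genes had counts. All summed fibroblast, immune and endothelial markers ran at 16.7 to 20.9, 48.1 to 77.0 and 8.04 to 9.22 CPM in shECM1 and at 23.6 to 35.5, 74.5 to 191 and 9.73 to 12.2 CPM in shNC. Of these lists 3 of 9, 2 of 7 and 2 of 5 genes were tested, CD68 and LYZ being the immune ones, and their part in the results was not tested.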

How the data were processed

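The table deposited by the authors holds counts for 20476 genes, not normalized, in 6 columns. The submitters' processing notes name the tools fastp, Seurat, STAR, DESeq2 and featureCounts and the builds GRCh38 and hg38. For their roles, versions, annotation and handling of strand the answer is: not given in the sources used here. The protocols in the labels cover both an extraction of total RNA and droplet libraries of single cells, and each column was treated as 1 library. The labels leave unsaid whether replicates came from separate cultures. The p-values therefore cover the spread between these 6 samples alone, and that spread may be technical. All pairs of libraries differed beyond sampling noise (chi-square per gene of at least 3.33).

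Symbols were found for 20462 identifiers. Counts were fitted in R 4.3.3 with edgeR 4.0.16 (filterByExpr, TMM, glmQLFit and glmQLFTest, no covariate), with Benjamini-Hochberg adjustment over 12576 genes. SE is the absolute log2 fold change over the square root of the F statistic, and intervals use the t distribution of that test. Log2 levels used a prior count of 2. DESeq2 1.42.0 and limma 3.58.1 (voom), other scalings and count filters, a GC offset, the replicate number as a block and each library left out were alternatives. The procedure was tested on simulated counts. Exon length and GC content came from GENCODE 29, and promoters from RefSeq.

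The members and lists were chosen with earlier results of these data known. Every transcript is accounted for, and values per library are given for MKI67, TOP2A and, in each other role group, the most abundant transcript, that of smallest p and that of largest difference. Other transcripts given by library (CDK1, AURKA, BUB1B, CENPE, KIF11, ECT2 and NUSAP1) were chosen after their values were seen. From other lists the most abundant gene and that of smallest p are named. Nothing in the labels says that replicate numbers pair the samples. Deviations from the group means of same-numbered libraries correlated at -0.07, -0.05 and -0.18, and those of other pairs at -0.08 to 0.13. Deviations from a mean of 3 libraries are tied to each other, so these values do not settle whether samples were paired.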

Additional observations from a re-analysis of the deposited data

How the results depend on the processing

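The 35 mitotic transcripts kept a negative median log2 fold change under every setting tried, and 0 were called except with DESeq2 and without shNC replicate 2. The median was -0.18 with all libraries and ran from -0.27 to -0.09 when 1 library was left out. The number called among the 35 was 1 with DESeq2, and ran from 0 to 14 when 1 library was left out. The number at an unadjusted p under 0.05, 9 in the fit reported, was 18 with the GC offset and ran from 1 to 22 when 1 library was left out. With the GC offset and without shNC replicate 2 together, chosen after seeing the data, 25 were called, 29 had an unadjusted p under 0.05 and the median was -0.40. No share over all genes tested is at hand for that setting, so these counts do not set the 35 apart from other genes. Over all genes tested the count called was 0, but 505 with no count filter, 713 with DESeq2 and from 0 to 3037 when 1 library was left out. The count at an unadjusted p under 0.05 was 2827, but 1881 with the GC offset and the replicate block together, and from 1433 to 4748 when 1 library was left out. Of the other listed genes 0 were called, but 3 with no count filter, 3 with DESeq2 and from 0 to 44 when 1 library was left out, and the 38 at an unadjusted p under 0.05 ran from 10 to 63. The higher counts came without shNC replicate 2 and the lowest without shNC replicate 3, and the cause was not tested. The replicate number as a block gave 0 calls and 8 of the 35 at an unadjusted p under 0.05, and the samples share only a number. Over all genes tested that fit gave 0 calls and 2414 genes at an unadjusted p under 0.05. The library positions moved by less than 0.17, the spread between replicates, with the other scalings, another prior count, the GC offset, the median in place of the mean, and a baseline of genes of like GC content that was chosen after seeing the data. Genes whose log2 fold change changed sign were uncalled in both fits. CENPN, at 0.00 with all libraries, was at -0.075 with the GC offset, -0.070 with that offset and the block, and -0.070 to 0.097 when 1 library was left out. STAG2 was at -0.15 with the GC offset, with or without the block, and -0.059 to 0.14 when 1 library was left out. CDKN2A was at 0.030 with the GC offset and 0.033 with that offset and the block. When 1 library was left out, E2F4 ran from -0.0012 to 0.29 and MCM7 from -0.0089 to 0.23, each negative without shECM1 replicate 3.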
